A study of Saccharomyces cerevisiae with 30 samples.

Results

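Break peaks on mitochondrial DNA were taken as all peaks on the mitochondrial chromosome (chrM) in the 16 deposited Break-seq lists of budding yeast, Saccharomyces cerevisiae. There were 364 of them among 4046 peaks in all (9.0%), and 12 of the 16 lists held at least 1. Break-seq labels broken DNA ends in agarose-embedded cells and sequences the labelled fragments, so that a peak marks a place with more labelled reads than its surroundings. The authors' lists give each peak's position and its fold over the local background, meaning the read pileup at the summit against the pileup around it.

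The libraries fall into 8 groups of 2. The strains carry the genotypes WT-FRB, INO80-FRB, Mot1-FRB and INO80-FRB Mot1-FRB, and each was sampled without hydroxyurea (HU) and with 100 mM HU. All 8 groups, the WT-FRB controls included, grew to log phase and had 3 h of rapamycin before harvest. A protein fused to FRB is carried out of the nucleus by an anchor protein when rapamycin is present, so INO80, the ATPase of a chromatin remodelling complex, and Mot1, which takes TATA-binding protein off DNA, are depleted from the nucleus and not from the whole cell. The labels do not give the time in HU, do not describe the WT-FRB strain further, and do not say whether the 2 libraries of a group came from separate cultures, so p-values below measure a spread between libraries that may be technical.

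Yeast mitochondrial DNA is rich in A and T and encodes the cytochrome b, cytochrome oxidase and ATP synthase subunits of the respiratory chain, a ribosomal protein, the RNAs of the mitochondrial ribosome and a set of tRNAs, with long AT-rich stretches between the genes. It maps as a circle but is found in cells largely as linear concatemers and branched molecules, at many copies per cell. Its copying and repair rest on nuclear genes such as MIP1, the mitochondrial DNA polymerase, and ABF2, which packages it. HU inhibits ribonucleotide reductase, which supplies the deoxynucleotides for nuclear and mitochondrial DNA alike.

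The lists give no read totals, so sequencing depth is unknown. Pileup and local background were recovered for every peak from its fold and −log10 p, and the lowest background of a list, a rough measure of depth, lay between 6.66 and 31.1 reads in the 12 lists with mitochondrial peaks. Those lists held 180 to 510 peaks in all. The 4 Mot1-FRB lists held 40, 14, 24 and 5 peaks, none on mitochondrial DNA, and their lowest backgrounds lay between 0.167 and 1.13 reads. The first WT-FRB library had the longest list and the highest lowest background (31.1 reads), and it also had the most mitochondrial peaks, so the tests and the counts of gained and lost regions below were also run without it.

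Mitochondrial peaks were low and numerous. Their fold ran from 1.19 to 3.22 with a median of 1.37, and 243 of the 364 lay under 1.5-fold whereas 34 reached 2-fold. The peaks were 142 to 3074 bp wide, with a median of 336 bp. In each of the 12 lists the median mitochondrial peak ranked near the bottom by fold, at the 1.70th to 8.49th percentile of its list (mean 5.01 ± 2.29, SD, n = 12). The mean percentile lay 45.0 points below the middle of the list, with the same direction in 12 of 12 lists (exact two-sided sign-flip permutation test over lists, p = 0.000488, adjusted p = 0.00540 over 14 tests). List medians of fold lay between 1.24 and 1.69 on mitochondrial DNA and between 1.88 and 2.79 on the nuclear chromosomes. Low folds and wide peaks were not particular to mitochondrial DNA. The few peaks in the nuclear ribosomal DNA had list medians of 1.28 to 1.99 in fold, which overlap the mitochondrial ones. Their list medians of width were 278 to 2065 bp, against 290 to 565.5 bp on mitochondrial DNA. The mitochondrial median width was on average 0.25 ± 0.28 log2 units above the nuclear one of the same list (SD, n = 12, larger in 9 of 12 lists, exact permutation p = 0.0122, adjusted p = 0.0285). That width call was lost without the first WT-FRB library, the first WT-FRB HU library or any of the 4 INO80-FRB Mot1-FRB libraries, each left out alone (exact permutation, adjusted p = 0.0525 each time). It was also lost without the peaks in the outer 5 kb of the sequence (0.22, exact permutation, adjusted p = 0.0625), and the difference reversed to -0.83 with peaks of −log10 q of at least 10, in the few lists that held 5 such peaks.

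The low folds stood on a high background. The local background at mitochondrial peaks had list medians of 161 to 258 reads, against 11.04 to 37.3 at nuclear peaks. The pileup at their summits had list medians of 277 to 334 reads, against 32.0 to 78.0 at nuclear peaks. The highest mitochondrial pileup of a list was 282 to 334 reads. Of the 364 peaks, 261 (71.7%) came within 95% of the highest mitochondrial pileup of their list, and the share ran from 40% to 100% by list. In the first WT-FRB HU list all 11 peaks had between 291 and 294 reads, whereas pileups spread from 173 to 315 reads in the first INO80-FRB list (40% within that limit) and from 197 to 329 in the second (50%). Only 42 nuclear peaks of the 12 lists reached the same limit, 36 of them in the ribosomal DNA. Ribosomal DNA, which like mitochondrial DNA is present in many copies, had its own highest pileup at 276 to 334 reads in these lists and at 163 to 304 in the Mot1-FRB lists. Where pileups are equal, peaks differ in fold through their local background alone. Why many pileups lay close to the highest of their list was not tested.

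**Figure D1:**
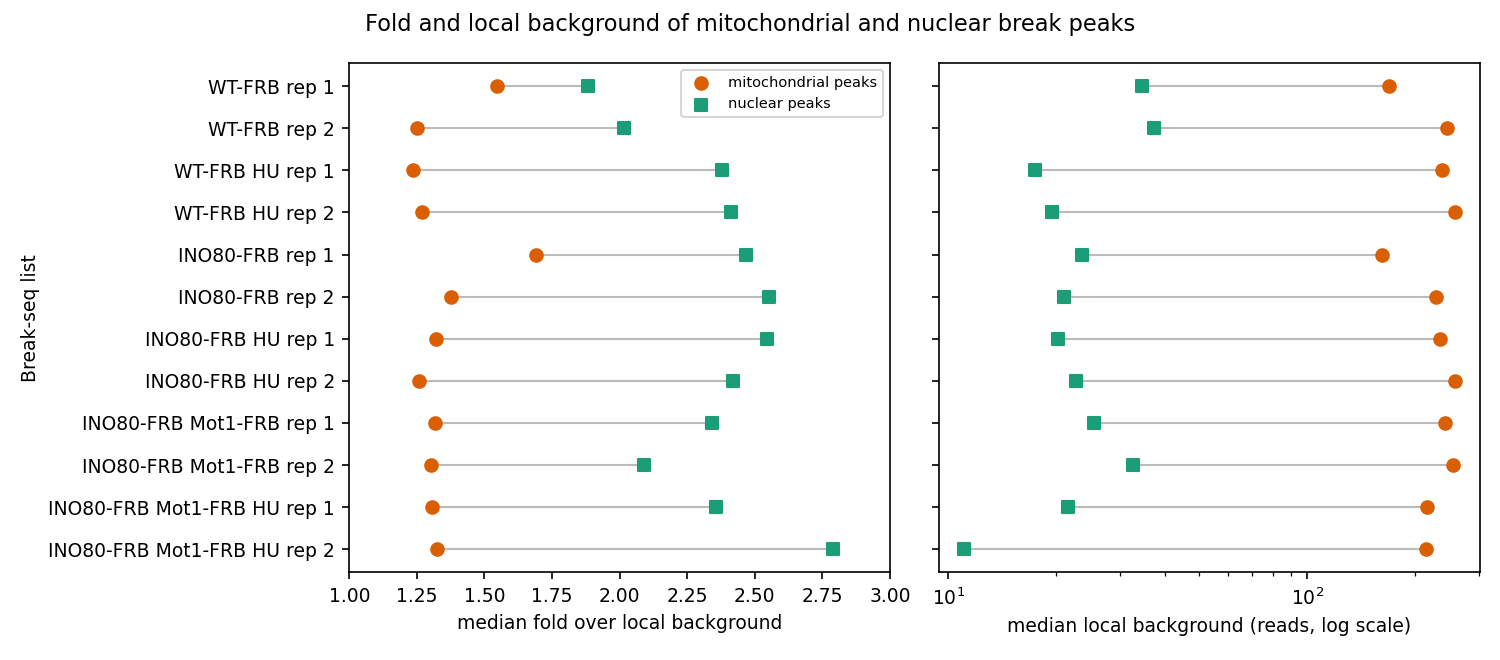
Median fold over local background (left) and median local background in reads on a log scale (right) of mitochondrial peaks (circles) and nuclear peaks (squares), with 1 row for each of the 12 lists that hold mitochondrial peaks. In every list the mitochondrial peaks have the lower fold (1.24 to 1.69) and the higher background (161 to 258 reads).

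Merged wherever they overlapped or touched, the 364 peaks formed 58 regions of 142 to 3074 bp that together covered 39080 bp, or 45.6% of the mitochondrial sequence (85777 bp to the end of the last annotated gene, assembly R64, the same as the files' build sacCer3). Of these regions 33 touched a gene and 25 lay wholly in gaps between genes. Mitochondrial regions recurred: 8 of the 58 (13.8%) had a peak in all 12 lists and 8 (13.8%) in a single list. Among 701 nuclear regions merged in the same way, 78 (11.1%) had a peak in all 12 lists and 337 (48.1%) in a single one. These shares are descriptions, since 45.6% of the sequence lies in some region and overlap between lists is then common. Of all mitochondrial bases 4116 (4.80%) lay under a peak in all 12 lists and 46697 (54.4%) under none.

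Among the 8 regions found in all 12 lists, the 3 with the highest median fold lay at the ends of the linear reference sequence. A region at the tRNA gene tD(GUC)Q (chrM:68268-68438), away from the ends, had a median of 1.97 but a peak in only 2 lists. RPM1 encodes the RNA subunit of mitochondrial RNase P, which trims the leader from tRNA precursors. The region within it (chrM:85347-85721, 375 bp) had a fold of 2.87 and 2.23 in the WT-FRB libraries, 2.10 and 2.12 with HU, 2.30 and 1.72 in INO80-FRB, 2.24 and 2.16 with HU, 2.14 and 2.14 in INO80-FRB Mot1-FRB, and 2.13 and 2.04 with HU. All 12 lists had it, with a median of 2.14, the highest of any region. Without HU both WT-FRB values lay above those of INO80-FRB Mot1-FRB, and INO80-FRB overlapped with both strains. With HU both INO80-FRB values lay above those of the other two strains.

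At the other end of the sequence, a region around the proline tRNA gene tP(UGG)Q (chrM:66-3139, 3074 bp, 97.7% of it in gaps) had its highest peak at 2.89 and 1.83 in WT-FRB, 1.64 and 1.98 with HU, 3.22 and 2.13 in INO80-FRB, 2.01 and 2.06 with HU, 2.28 and 1.71 in INO80-FRB Mot1-FRB, and 1.74 and 1.79 with HU. The first libraries of WT-FRB and of INO80-FRB were the high ones, and the value of 3.22 was the highest of any mitochondrial peak. The region next to RPM1, which holds a methionine tRNA gene, tM(CAU)Q2 (chrM:83376-85193), had 2.47 and 1.87 in WT-FRB, 1.74 and 1.65 with HU, 2.64 and 2.25 in INO80-FRB, 2.23 and 1.95 with HU, 1.85 and 1.79 in INO80-FRB Mot1-FRB, and 1.88 and 1.81 with HU. WT-FRB and INO80-FRB overlapped without HU, and with HU both INO80-FRB values were the higher. Both INO80-FRB values lay above those of INO80-FRB Mot1-FRB with and without HU. RPM1 carried the highest fold of 8 lists, the tP(UGG)Q region that of 3 and the tM(CAU)Q2 region that of 1.

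The highest folds stood where the background was low. In 12 of 12 lists the 3 highest folds belonged to peaks whose summits lay within 5 kb of an end of the sequence, a limit chosen after the values were seen. The 97 peaks in these outer stretches had list medians of background between 117 and 216 reads, and the 267 peaks elsewhere between 175 and 266. The median outer background was 0.661 to 0.899 times the inner one, lower in 12 of 12 lists. The outer median of the pileup was lower than the inner one in 10 lists and equal to it in 2. At RPM1 the background, 74.6 to 147 reads, was the lowest of all mitochondrial peaks in each of the 12 lists and 0.420 to 0.585 times the inner median, and in 8 lists its pileup was also the lowest. How the local background was formed at the ends of the linear sequence is not given in the sources used here, and its part in these folds was not tested. Away from the ends, list medians of fold were 1.23 to 1.63 and list maxima 1.24 to 2.25.

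**Figure D2:**
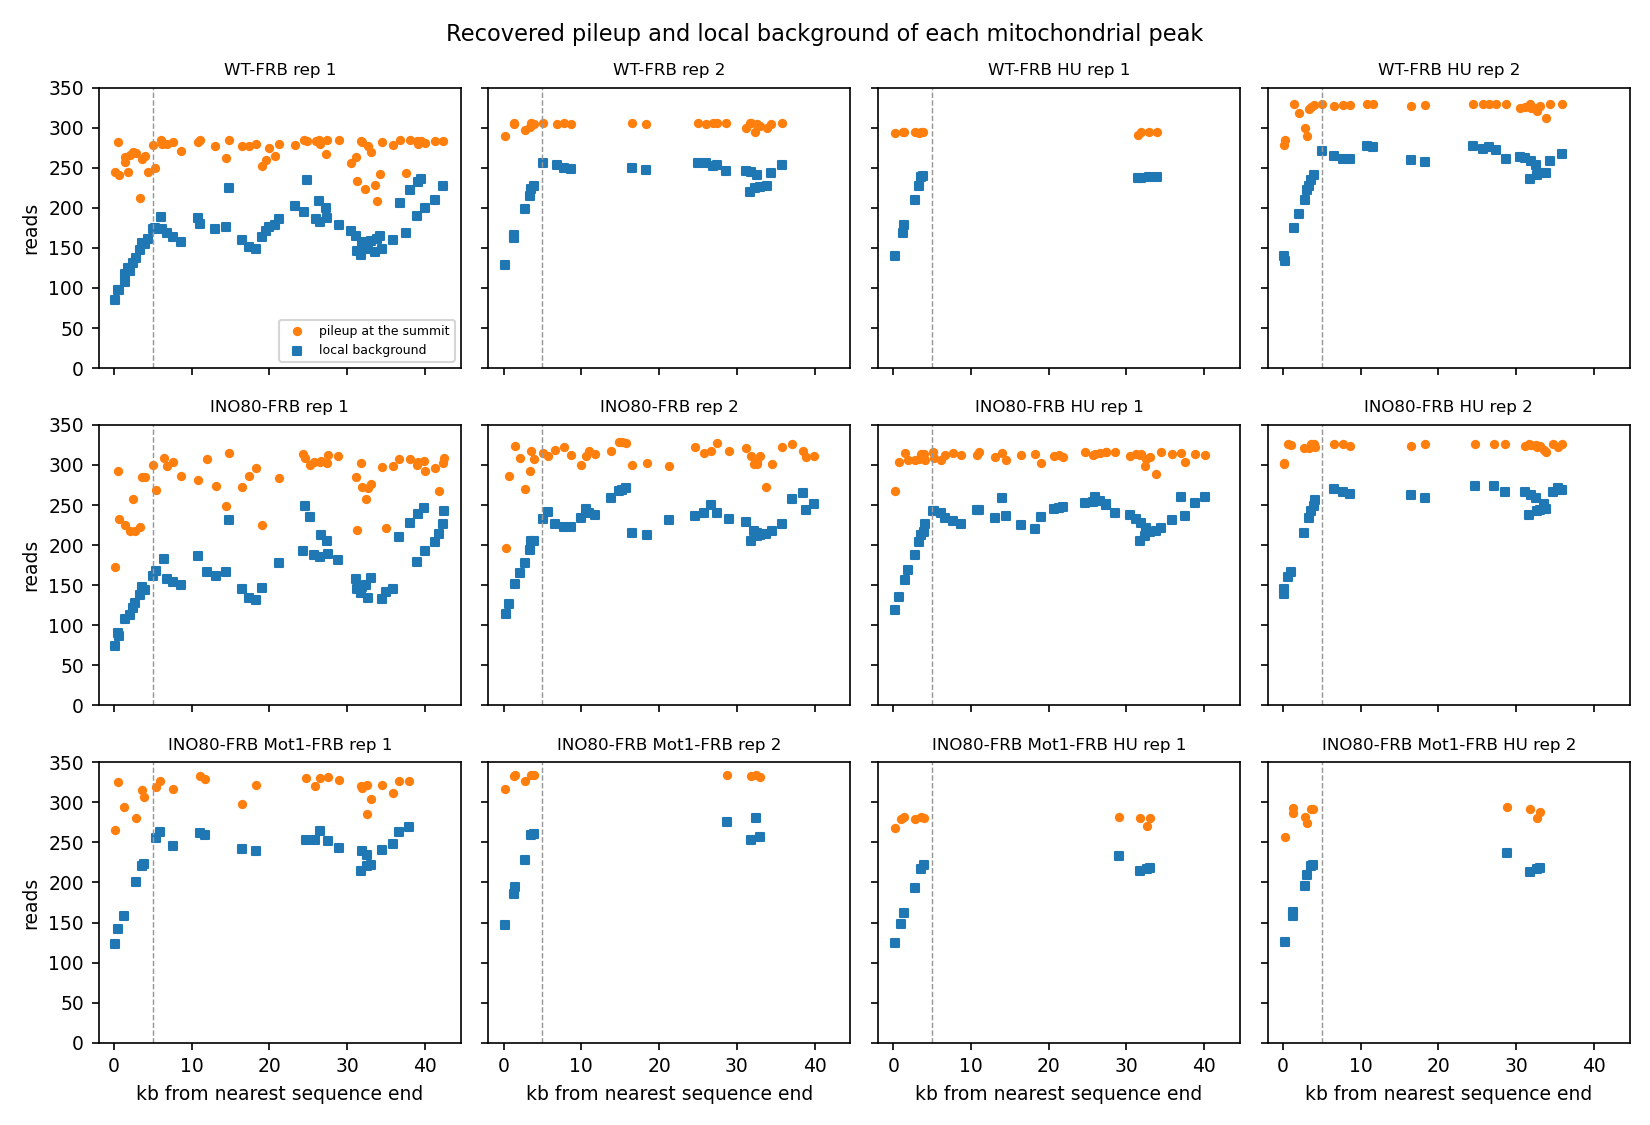
Pileup at the summit (circles) and local background (squares) in reads for each mitochondrial peak, against the distance of its summit in kb from the nearest end of the linear reference sequence, with 1 panel per list and a dashed line at 5 kb. In every panel the median background is lower within 5 kb of an end than elsewhere, and 40% to 100% of the pileups lie within 95% of the highest of the list (282 to 334 reads).

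The other 5 regions found in all 12 lists lay wholly between genes and were lower. Of these, 3 were also in the outer stretches. The region between COX3 and tM(CAU)Q2 at chrM:82807-83186 had a median fold of 1.46 (1.39 to 1.94), its neighbour at chrM:81364-82214 one of 1.35 (1.22 to 1.98), and the region between tP(UGG)Q and the 15S ribosomal RNA gene at chrM:3457-3743 one of 1.38 (1.23 to 1.92). They held their highest values in the first WT-FRB or the first INO80-FRB library.

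The remaining 2 stood apart from the ends, side by side in the 6106 bp gap between ATP6, an ATP synthase subunit, and the glutamate tRNA gene tE(UUC)Q. The first (chrM:31041-32111) had 1.99 and 1.39 in WT-FRB, 1.24 and 1.40 with HU, 2.14 and 1.52 in INO80-FRB, 1.52 and 1.37 with HU, 1.49 and 1.31 in INO80-FRB Mot1-FRB, and 1.31 and 1.37 with HU. Its summits lay within 189 bp of each other in the 12 lists. The second (chrM:32229-33275) had a median of 1.34 (1.23 to 1.74) and summits within 134 bp. In both regions the first WT-FRB and the first INO80-FRB library were highest. WT-FRB overlapped with the other strains, whereas both INO80-FRB values lay above those of INO80-FRB Mot1-FRB with and without HU. Just short of full recurrence were a region reaching into ATP6 (chrM:28126-29086), found in 11 lists with a median fold of 1.26, and a gap region between VAR1 and the 21S ribosomal RNA gene (chrM:53026-53352), found in 9 with a median of 1.37.

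**Figure D3:**
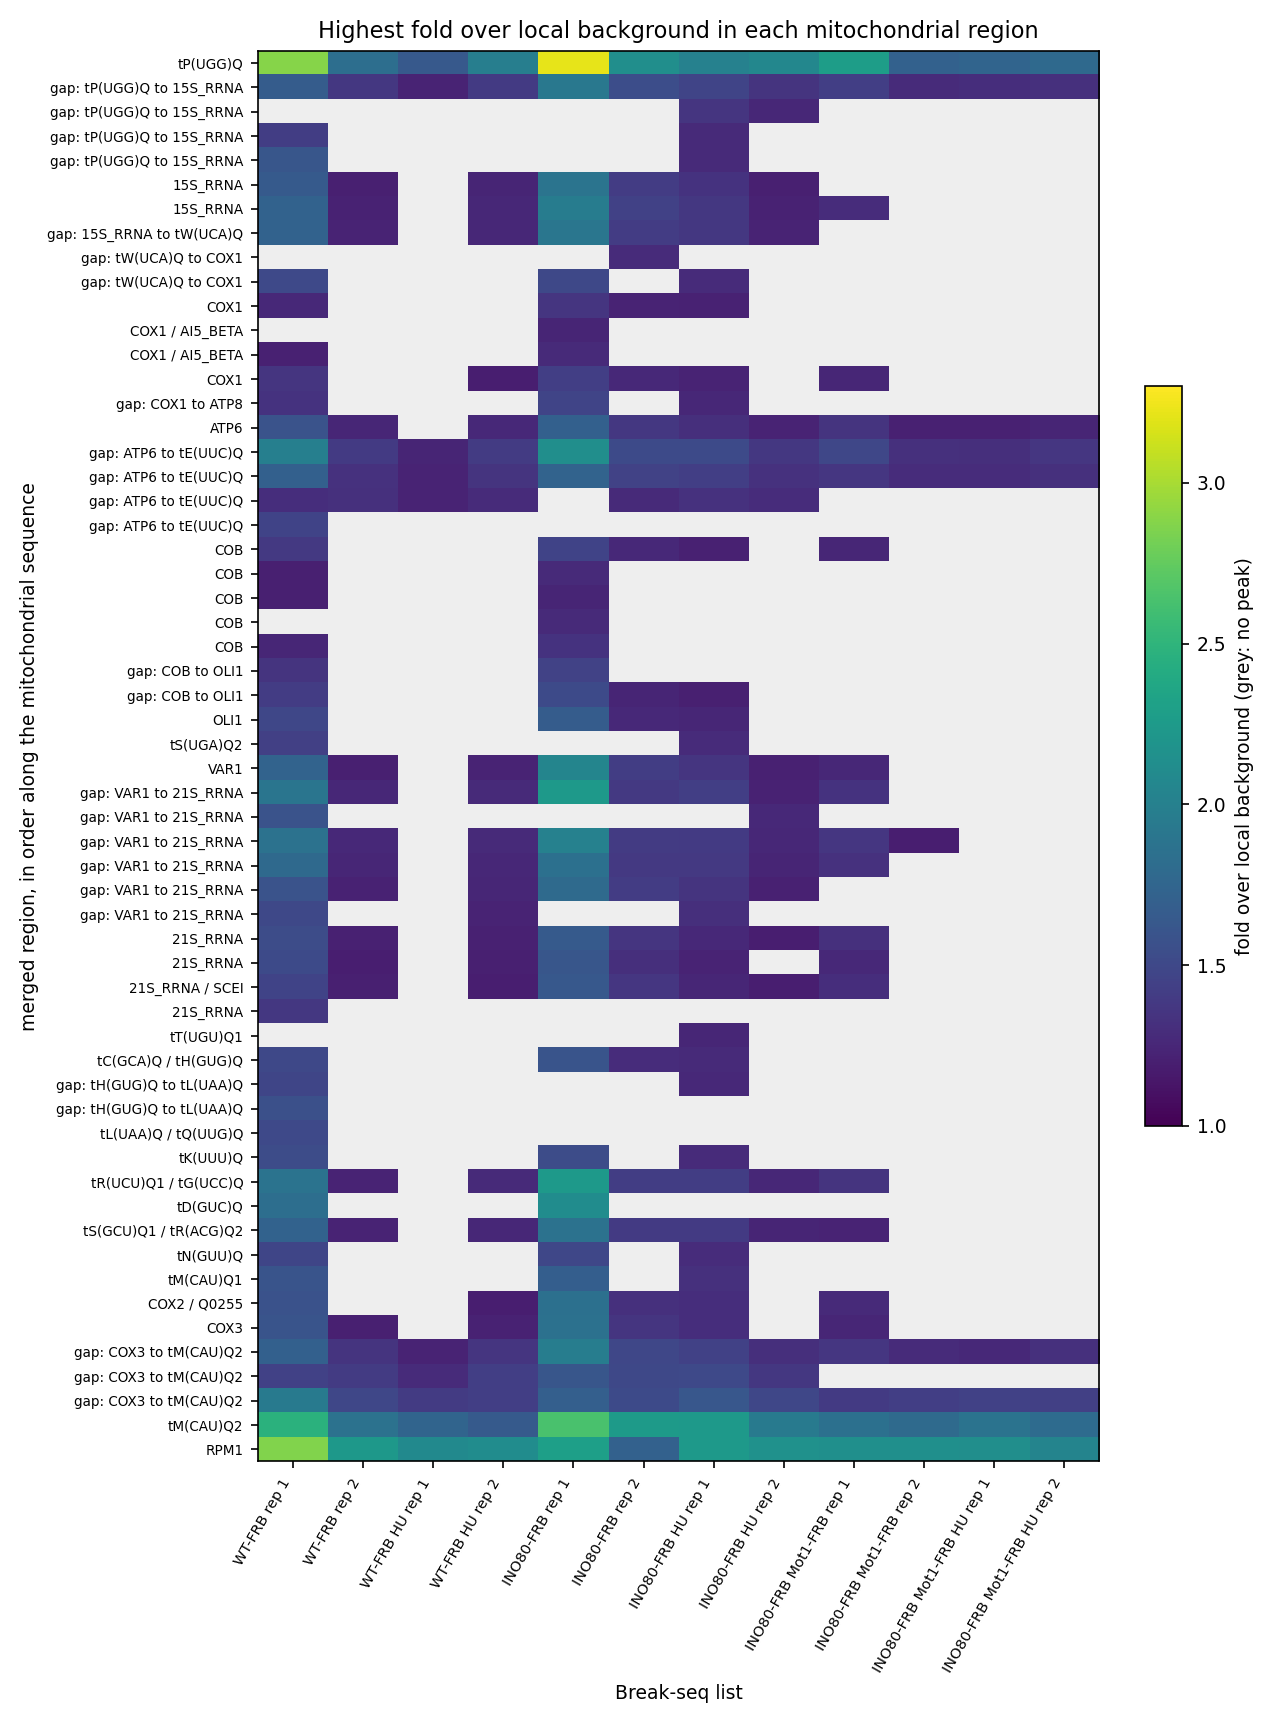
Highest fold over local background in each of the 58 merged regions (rows, in order along the sequence, named by the genes they touch or by the flanking genes of their gap) in each of the 12 lists with mitochondrial peaks (columns); grey means no peak. The 8 rows filled in all 12 columns lie toward both ends, with tP(UGG)Q, tM(CAU)Q2 and RPM1 among them, and in the gap after ATP6, and most other rows are empty in the 4 lists with 10 or 11 peaks.

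The lists were largely nested. The first WT-FRB list, with 53 of the 58 regions, held every region of the other WT-FRB lists and of the 4 INO80-FRB Mot1-FRB lists, and all but 1 or 2 regions of each of the 4 INO80-FRB lists. A short list thus held mainly the regions that all lists shared: the 124 peaks in the 8 regions found everywhere made up 34.1% of all mitochondrial peaks and 29 of the 34 that reached 2-fold. On mitochondrial DNA, pairs of libraries from the same group shared a median Jaccard index in bases of 0.452 (6 pairs) and pairs from different groups one of 0.455 (60 pairs).

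Genes and gaps were covered unevenly. Gaps make up 60.6% of the mitochondrial sequence and took 66.7% ± 19.7 of the bases under peaks (SD, n = 12, range 37.5% to 93.7%). Protein-coding genes make up 29.6% and took 15.7% ± 13.8, the 2 ribosomal RNA genes 7.10% and 12.5% ± 9.38, the tRNA genes 2.14% and 2.63% ± 0.62, and RPM1 0.563% and 2.51% ± 1.46. Measured the other way, peaks covered 42.9% ± 34.5 of the ribosomal RNA genes, 14.3% ± 16.6 of the protein-coding genes and 18.9% ± 5.37 of the gaps. They covered 26.2% ± 17.6 of the tRNA genes and 65.1% ± 8.51 of RPM1, the most covered class. In percentage points the covered part of the gaps thus varied least between lists, while that of ribosomal RNA genes ranged from 0% to 81.9%. Set against its mean, the covered part of RPM1 varied less than that of the gaps. Counted as peaks, 181 of the 364 lay wholly in gaps and 32 wholly in protein-coding genes.

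**Figure D4:**
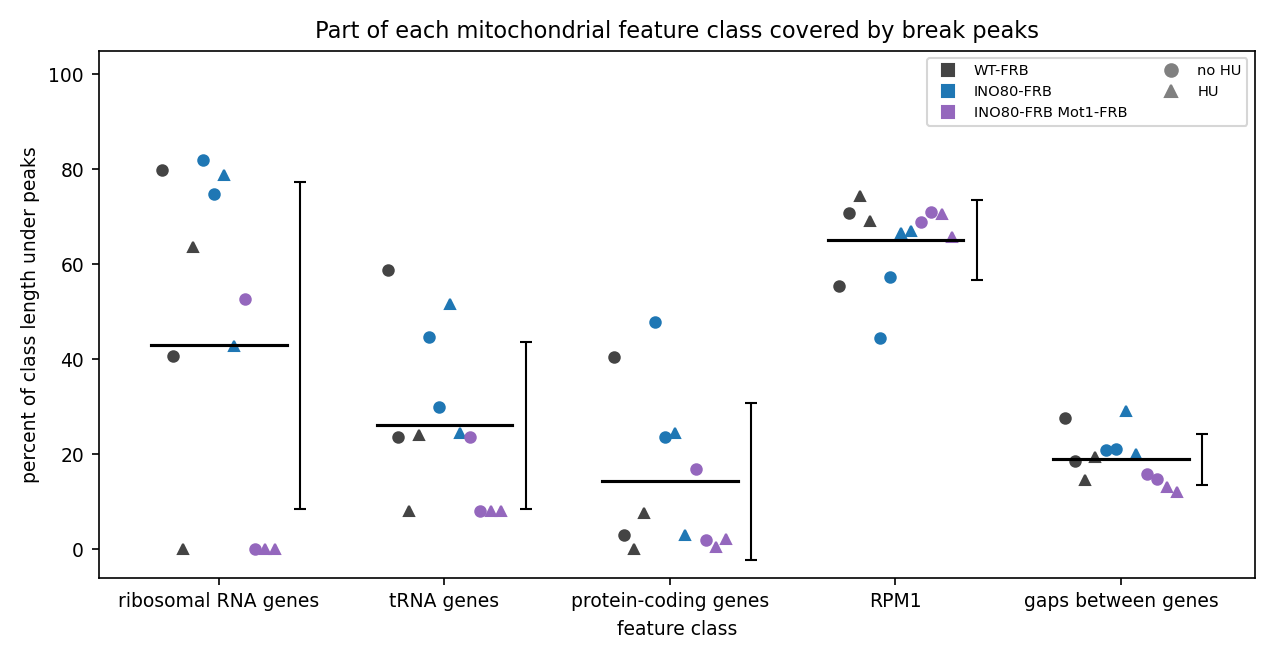
Percent of the length of each mitochondrial feature class that lies under break peaks, in each of the 12 lists (circles without HU, triangles with HU, coloured by strain), with the mean as a horizontal line and 1 SD as the bar beside it. Ribosomal RNA genes range from 0% to 81.9%, whereas the gaps between genes keep to between 11.97% and 29.1%.

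Both ribosomal RNA genes had peaks in most lists. The 15S gene (chrM:6546-8194), for the small ribosomal subunit, had peaks in 8 lists with folds of 1.22 to 1.97, and the 21S gene (chrM:58009-62447), for the large subunit, in 8 lists with 1.19 to 1.65. Both were missed by the same 4 lists, the first WT-FRB HU list, the second INO80-FRB Mot1-FRB list and both of that strain with HU, which are the 4 with only 10 or 11 mitochondrial peaks. Within the 21S gene lies the frame of SCEI, the homing endonuclease encoded in its intron. This frame had a peak in 7 lists, the part before it in 8 and the part after it in 6.

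Among the protein-coding genes, ATP6 had a peak in 11 lists and ATP8, a short ATP synthase gene upstream of it, in 0. VAR1, the ribosomal protein gene, had one in 8 lists with folds of 1.21 to 2.04. COX1 and COX2, the core subunits of cytochrome oxidase, and Q0255, a frame overlapping the end of COX2, had one in 6 lists each. COX3, the third mitochondrial oxidase subunit, and COB, which encodes cytochrome b, had one in 5, and OLI1, the ring subunit of ATP synthase, in 4. VAR1, COX1, COX2, COX3, COB and OLI1 were all missed by the 4 lists with 10 or 11 mitochondrial peaks, whereas ATP6 was missed by the first WT-FRB HU list alone.

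Introns could be described only through the frames they encode, since the gene table gives no exon or intron bounds. The frames AI1 to AI5_ALPHA of COX1 all start with the gene and read through into successive introns. The stretch up to the end of AI1 (chrM:13818-16322) had peaks in 4 lists, which between them covered 99.8% of it. From there to the end of AI5_ALPHA (chrM:16323-23167, 6845 bp), no list had a peak. AI5_BETA further on had one in 2 lists. In COB, the stretch to the end of BI2 had a peak in 5 lists, the next to the end of BI3 in 2 and that to the end of BI4 in 1. The longest mitochondrial stretch with no peak in any list ran for 8119 bp within COX1 (chrM:16319-24437), and the next, of 3181 bp, held the tRNA genes tF(GAA)Q, tT(UAG)Q2 and tV(UAC)Q (chrM:76026-79206). The mappability of these stretches and their local coverage were not analysed here, so an empty stretch may be low or even in reads.

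Of the 24 tRNA genes 16 had a peak in at least 1 list. Apart from tP(UGG)Q and tM(CAU)Q2 (12 lists each), a pair for arginine and glycine, tR(UCU)Q1 and tG(UCC)Q, shared 1 region that was found in 8 lists (chrM:67287-67584, fold 1.23 to 2.25). A second pair, the adjoining genes tS(GCU)Q1 and tR(ACG)Q2, shared another in 8 lists (1.23 to 1.87). The other 10 with a peak had it in 1 to 4 lists, and 8 had none. No peak lay wholly within a tRNA gene, and the fold of a region cannot be assigned to the tRNA gene rather than to its flank. Of the 34 gaps between genes 29 had a peak and 5 of them in all 12 lists.

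By strain, the number of mitochondrial peaks was highest in WT-FRB and INO80-FRB. WT-FRB held 64 and 27, and 11 and 32 with HU. INO80-FRB held 55 and 42, and 47 and 28 with HU. INO80-FRB Mot1-FRB held 27 and 10, and 10 and 11 with HU. The WT-FRB and INO80-FRB values overlapped both with and without HU, and the 2 WT-FRB libraries of a group differed widely from each other.

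The length under peaks gave the same order. It was 36.0% and 15.9% of the mitochondrial sequence in WT-FRB, 9.49% and 19.5% with HU, 33.9% and 26.1% in INO80-FRB, 32.0% and 17.0% with HU, 19.3% and 10.1% in INO80-FRB Mot1-FRB, and 8.68% and 8.41% with HU. The first WT-FRB library was again the highest. Within the lists, mitochondrial peaks made up 3.13% to 15.1% of peaks, and the 4 Mot1-FRB lists, at 0, allow shares of up to 7.5%, 21.4%, 12.5% and 60% (3 counts of the list's peaks), as they are short. These limits cover counting error only.

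**Figure D5:**
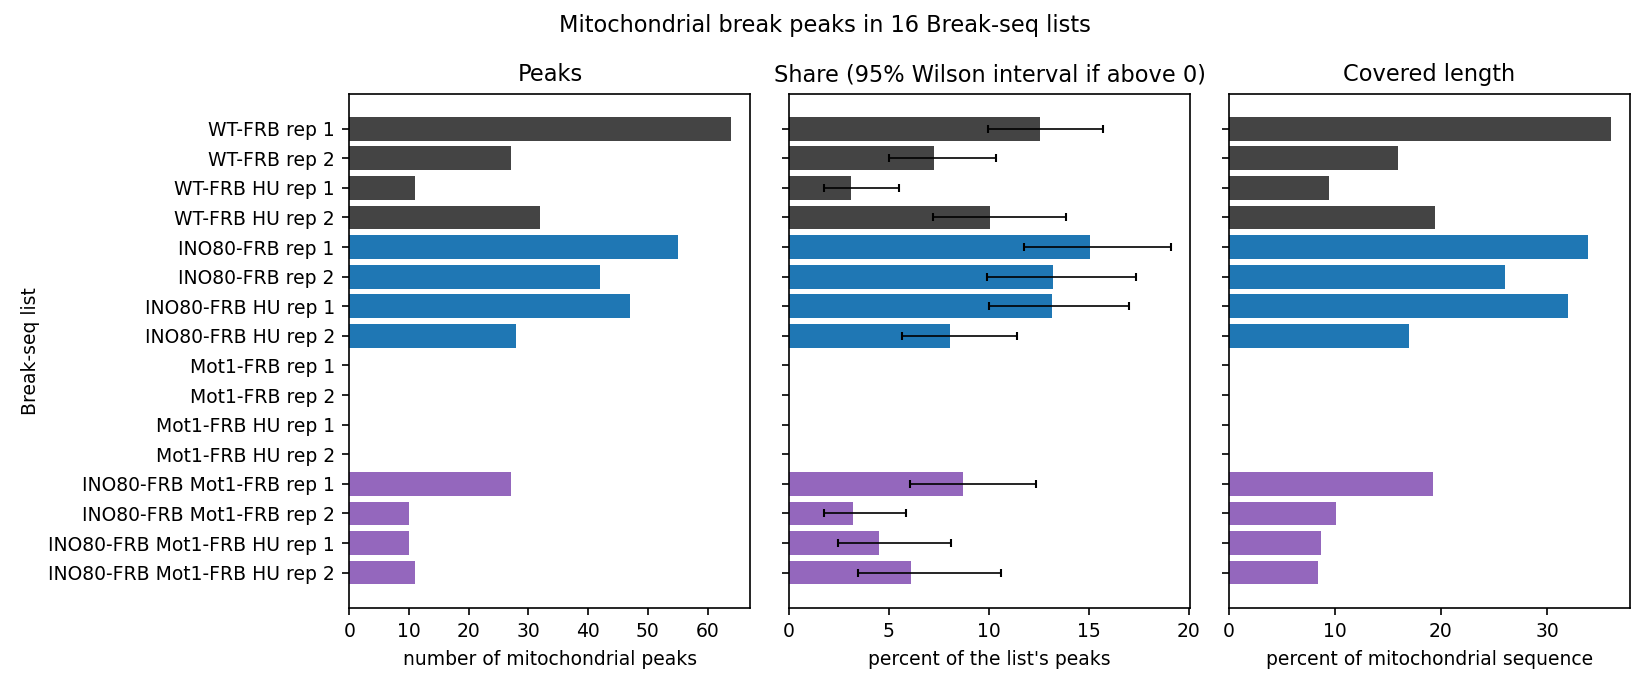
Number of mitochondrial peaks (left), their share of all peaks of the list with 95% Wilson intervals where it is above 0 (middle) and percent of the mitochondrial sequence under peaks (right) in each of the 16 lists, coloured by strain. The first WT-FRB list stands highest in number (64) and covered length (36.0%), and the Mot1-FRB lists are at 0.

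HU passed none of its main tests at the adjusted threshold of 0.05. Over the 4 strains the HU libraries held 17.4 ± 16.7 mitochondrial peaks and those without HU 28.1 ± 24.2 (SD, n = 8 each), a difference of -10.75 (exact two-sided permutation within strain, p = 0.111, adjusted p = 0.130), lower in 3 of the 4 strains, with no peaks in the other. The covered length differed by -5.78 percentage points (exact permutation p = 0.111, adjusted p = 0.130) and the share of peaks by -1.87 points (exact permutation p = 0.204, adjusted p = 0.219). Without the first WT-FRB library the differences were -5.63 peaks and -3.16 points of length, and without the first INO80-FRB library -6.91 peaks, -3.46 points of length and -0.794 points of share. Within a strain, 2 libraries against 2 reach no exact p below 0.333. In WT-FRB the number was 45.5 ± 26.2 without and 21.5 ± 14.8 with HU, and its groups overlapped. In INO80-FRB Mot1-FRB the covered length was 14.7% ± 6.46 without and 8.55% ± 0.189 with HU, without overlap. The INO80-FRB share did not overlap either (14.1% ± 1.32 without and 10.6% ± 3.58 with HU). Nor did the WT-FRB ratio of mitochondrial to lowest background (2.89 ± 0.63 without and 4.51 ± 0.11 log2 units with HU). The other such comparisons overlapped or had no mitochondrial peaks. The ratio of mitochondrial background to the lowest background of the list was 0.77 log2 units higher with HU (6 libraries against 6, exact permutation p = 0.0648, adjusted p = 0.0951), higher in 3 of 3 strains, was 0.51 higher without the first WT-FRB library, and passed without the second INO80-FRB library (0.98, exact permutation, adjusted p = 0.0486). Taken over the median nuclear background of the list instead, the ratio was 0.79 higher and passed (exact permutation, adjusted p = 0.0216). The outcome thus depends on the background it is set against.

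Folds by group are given as a description. The median fold of a list was 1.40 ± 0.211 in WT-FRB (mean ± SD of 2 list medians), 1.25 ± 0.0219 with HU, 1.53 ± 0.223 in INO80-FRB, 1.29 ± 0.0459 with HU, 1.31 ± 0.00975 in INO80-FRB Mot1-FRB and 1.31 ± 0.0128 with HU. The 2 first libraries without HU, of WT-FRB and of INO80-FRB, had the highest medians (1.55 and 1.69) and the lowest mitochondrial backgrounds (169 and 161 reads). These 2 libraries also held 27 and 35 of the 96 mitochondrial peaks with −log10 q of at least 10, and the other 10 lists held 3 to 5 each.

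INO80 depletion was compared within Mot1 status and HU. The number of mitochondrial peaks was 28.8 ± 17.8 with INO80 depleted and 16.8 ± 23.1 without (SD, n = 8 each), 12 higher and in 4 of 4 strata (exact two-sided permutation p = 0.0679, adjusted p = 0.0951). In the strata with Mot1 depleted, all controls were Mot1-FRB lists at 0, so only a higher value was possible there. This holds for covered length and share too. The covered length was 9.31 points higher (exact permutation p = 0.0262, adjusted p = 0.0525). The share of peaks passed with 4.88 points (exact permutation p = 0.00463, adjusted p = 0.0130), but 4 of its 8 control libraries are the Mot1-FRB lists at 0. That call was lost without the first INO80-FRB library (4.01 points, exact permutation, adjusted p = 0.0951), the second (4.28, adjusted p = 0.0833) or any 1 of the Mot1-FRB libraries (4.29, adjusted p = 0.0525), and with peaks of −log10 q of at least 10 (3.13, adjusted p = 0.389). With lists of under 50 peaks left out the differences were 9.50 peaks (exact permutation p = 0.444), 7.01 points of covered length (p = 0.389) and 4.12 points of share (p = 0.167). Without the first WT-FRB library, the number differed by 18.8 (exact permutation, adjusted p = 0.00864) and the covered length by 13.01 points (exact permutation, adjusted p = 0.00864), and both then passed. The number passed with no other single library left out, but it did pass with all libraries on a log2 scale (exact permutation, adjusted p = 0.0244). All of these runs kept the 4 Mot1-FRB lists at 0 among the controls. The covered length also passed without the second WT-FRB HU library, the second INO80-FRB Mot1-FRB library or either INO80-FRB Mot1-FRB HU library (exact permutation, adjusted p = 0.0278 to 0.0463). The ratio of mitochondrial to lowest background was 0.88 log2 units higher with INO80 depleted in the lists with peaks (4 against 4, exact permutation p = 0.0556, the smallest that design allows, adjusted p = 0.0951), and 0.46 higher without the first WT-FRB library. Taken over the median nuclear background of the list instead of the lowest, the ratio was 0.19 higher (exact permutation p = 0.611), so the difference depends on the background it is set against.

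Mot1 depletion went with fewer mitochondrial peaks, less covered length and a smaller share. With Mot1 depleted the number was 7.25 ± 9.48 and without 38.3 ± 17.1 (SD, n = 8 each), a difference of -31.0 in the same direction in 4 of 4 strata (exact two-sided permutation within INO80 status and HU, p = 0.00154, the smallest reached, adjusted p = 0.00540). In the strata without INO80 depletion the Mot1-FRB lists are at 0, so only a lower value was possible there. The covered length differed by -17.9 points and the share by -7.49 points, with the same p-values (exact permutation p = 0.00154, adjusted p = 0.00540). Between INO80-FRB Mot1-FRB and INO80-FRB alone, which leaves out the short Mot1-FRB lists, the differences were -28.5 peaks, -15.6 points of length and -6.73 points of share, each with an exact permutation p of 0.0556, the smallest those 4 against 4 libraries allow (adjusted p = 0.0951). The numbers of the 4 lists depleted of both proteins, 10 to 27, lay below those of the 4 INO80-FRB lists, 28 to 55, whereas the covered lengths overlapped. The lowest background was at most 1.13 reads in the Mot1-FRB lists, whose ribosomal DNA pileups reached 163 to 304 reads. The depth of these lists is unknown, and its part in these differences was not tested.

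A region was counted as gained or lost where both libraries of one group had a peak and neither of the other, and the share of all 759 merged regions that met the same rule is given beside each count. With HU, WT-FRB gained 0 mitochondrial regions (3.43% of all regions) and lost 0 (5.93%). INO80-FRB gained 1 of the 58 with HU (1.72%, against 2.37% of all regions) and lost 0 (0.659%). INO80-FRB Mot1-FRB gained 0 (0% of all regions) and lost 1 (1.72%, against 5.27%), and Mot1-FRB gained 0 (0%) and lost 0 (0.264%). The region gained in INO80-FRB lay between tP(UGG)Q and the 15S gene (chrM:4005-4189) at 1.35- and 1.25-fold, and no other list had it. It was thus also the 1 region gained in INO80-FRB against WT-FRB with HU (3.29%), where 0 were lost (1.84%).

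Without HU, INO80-FRB gained 0 mitochondrial regions against WT-FRB (2.5%) and lost 0 (3.95%). INO80-FRB Mot1-FRB gained 0 against WT-FRB (1.84%) and lost 5 (8.62% of the 58 mitochondrial regions, against 3.82% of all regions), and with HU gained 0 (0.395%) and lost 2 (3.45% against 5.4%). Against INO80-FRB it gained 0 (1.19%) and lost 8 (13.8% against 2.64%), and with HU gained 0 (0.132%) and lost 15 (25.9% against 8.56%). The comparisons of this strain share its libraries. Its lists held 310 and 310 peaks in all without HU, against 365 and 318 in INO80-FRB and 510 and 373 in WT-FRB. With HU they held 222 and 180, against 358 and 347 in INO80-FRB and 352 and 318 in WT-FRB. The part of list length in these losses was not tested. Mot1-FRB gained 0 mitochondrial regions against WT-FRB (0.922%) and lost 25 (43.1% against 26.5%), or with HU 0 (0.264%) and 10 (17.2% against 20.9%), which is every region that both WT-FRB libraries held.

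One region was absent from a strain while its neighbours were present. A 262 bp region between COX3 and tM(CAU)Q2 (chrM:82315-82576), singled out after its values were seen, had a peak in all 8 WT-FRB and INO80-FRB lists, at 1.29- to 1.61-fold, and in none of the 4 INO80-FRB Mot1-FRB lists. The regions on both sides of it (chrM:81364-82214 and chrM:82807-83186) had a peak in each of those 4 lists. Nuclear genes for mitochondrial DNA maintenance had no break peak in any list: 0 of 18 genes that included MIP1, ABF2, RIM1, MGM101 and the ribonucleotide reductase genes RNR1 to RNR4, against 305 of 6431 nuclear genes (4.74%). A list of 18 genes is too short to tell 0 from that share.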

How the data were processed

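Peak lists of 16 Break-seq libraries were used, 1 per library and not pooled, and of Orc5 and Arp5 ChIP-seq. The 8 NET-seq libraries were not analysed here. Reads were 75 bp and paired, per the labels' protocols. Per the submitters' processing notes, alignment tools include Bowtie2 and the build is sacCer3, with no version stated; no source used here names the peak caller or its settings. The deposited Break-seq lists give, for every peak, a score, a summit offset, its fold (a ratio over local background) and the −log10 values of p and q. The deposited Arp5 lists hold counts of ChIP reads, an enrichment ratio and a q-value, per the file headers. These values are the authors', each describing its own peak, and no fold was tested between groups.

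From fold and p the pileup and background of a peak were solved for, assuming Poisson counts; a whole-number pileup reproduced −log10 p to within 0.001 for 100% of peaks. Depth is unknown, and Wilson intervals at 95% cover counting error only. Annotation came from the RefSeq gene table of assembly R64 (46 mitochondrial genes), matched by position with at least 1 bp of overlap. It has no exon bounds and no mitochondrial replication origins, which were not analysed here, and no sequences were used. Within-list values needed 5 mitochondrial peaks.

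Effects of HU, INO80 and Mot1 depletion on number, share, covered length and background were tested with exact two-sided permutations within strata of the other factors, and rank and width with exact sign flips over 12 lists. Benjamini-Hochberg adjustment ran over these 14 tests, with a threshold of 0.05. Named regions are the 10 found in most lists, ties by median fold. Alternatives were each library left out, peaks with −log10 q of at least 10, lists of 50 or more peaks, a replicate block, other scales, ranks and denominators, merging within 500 bp and placing peaks by midpoint. The tests were checked on simulated data. Members, gene lists and tests were chosen with earlier results of these data known. Scripts used Python 3.11.15, numpy 2.4.6, pandas 2.3.3, scipy 1.17.1 and matplotlib 3.10.9.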

Additional observations from a re-analysis of the deposited data

Results flagged for a closer look

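Mitochondrial peaks also appear in lists that the comparisons above do not use. The Arp5 ChIP-seq lists, from a strain in which Arp5, a subunit of the INO80 complex, carries FRB, held 13 and 23 mitochondrial peaks without rapamycin and 16 and 13 with it, each above the limit of 3 that a count of 0 allows. Their median enrichment was 1.34 and 1.68 without rapamycin and 1.74 and 1.38 with it, against 4.28 to 5.24 for nuclear peaks of the same lists. Of their mitochondrial bases 47.3% to 51.8% lay in the regions of the break peaks, which cover 45.6% of the sequence. The bases shared by all 4 Arp5 lists came to 10178, of which 56.7% lay in those regions. Of the bases under a break peak in all 12 lists, the Arp5 peaks held 56.5% and 62.0% without rapamycin and 50.9% and 55.3% with it. Those Arp5 peaks covered 26.0% and 38.1% of the mitochondrial sequence without rapamycin and 17.4% and 15.0% with it. The bases under a break peak in all 12 lists thus lay under Arp5 peaks more often than the sequence as a whole, and why was not tested. Of these 4116 bases 515 lay in the gap between ATP6 and tE(UUC)Q, and the others toward the ends of the sequence. The Arp5 lists touched 4 and 6 of the 8 regions found in all 12 lists without rapamycin, and 4 and 4 with it. The 2 Orc5 ChIP-seq lists held 0 mitochondrial peaks among 1415 and 1968.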

How the results depend on the processing

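Leaving out 1 library at a time moved the INO80 difference in number between 8.25 and 18.8 peaks, in covered length between 7.25 and 13.01 points and in share between 4.01 and 6.09 points, the share losing its call without either INO80-FRB library without HU or without any of the 4 Mot1-FRB libraries (exact permutation, adjusted p up to 0.0951). The HU difference in background ranged from 0.51 to 0.98 log2 units and the width difference from 0.21 to 0.29. The sum of gained and lost regions over 9 comparisons (leaving out the 3 with Mot1-FRB) was 33 with all libraries and ran from 33 to 93. In these runs the group of the left-out library was judged by its 1 remaining library, which is a looser rule. The highest sum came without the second WT-FRB library, where the long first list alone stood for WT-FRB without HU.

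With −log10 q of at least 10, the share differed by 3.13 points for INO80 (exact permutation, adjusted p = 0.389) and by -7.55 for Mot1 (adjusted p = 0.139). The covered length differed by -5.66 points for Mot1 (exact permutation, adjusted p = 0.0525). The fold rank differed by -38.3 points (exact sign-flip permutation, adjusted p = 0.269), and the width difference reversed to -0.83. These last 2 rest on the 3 lists with at least 5 such peaks. Sign flips of 3 lists reach no p below 0.25, so neither could pass. Regions fell to 32, those in all 12 lists to 2, and gained or lost ones to 0. The tRNA share was 27.4% over the same 3 lists, against 16.5% over 12 lists with all peaks. In lists of 50 or more peaks the Mot1 differences were -28.5 peaks, -6.73 points of share and -15.6 of length and the INO80 share 4.12 points, none of them called, where the design allows no exact p below 0.0556. On the log2 scale the INO80 number passed (2.19, exact permutation, adjusted p = 0.0244), with the Mot1-FRB lists at 0 among its controls. The HU background over the nuclear median also passed (0.79, exact permutation, adjusted p = 0.0216). With that same denominator the INO80 background difference fell to 0.19 (exact permutation, adjusted p = 0.611) and the Mot1 one reversed to 0.14. Merging within 500 bp gave 29 regions, 3 in all lists and 14 gained or lost. By midpoint, tRNA genes took 3.21% of peaks and gaps 67.3% instead of 80.1%. Without the outer 5 kb, chosen after the values were seen, 2 regions were in all lists, the width difference was 0.22 (exact permutation, adjusted p = 0.0625), ribosomal RNA genes took 18.3% of peaks instead of 9.28% and tRNA genes 12.5%.

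With the replicate block the HU, INO80 and Mot1 differences in number kept their values and gave exact permutation p of 0.125, 0.0547 and 0.00781, and no call changed. Same-numbered libraries deviated together in 3 of 28 pairs of groups (correlation over 0.1), so the numbers were not taken to pair samples. Short lists and unknown depth limit every count.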
